A study of Mus musculus with 6 samples.

Results

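The proneural and neurogenic basic helix-loop-helix (bHLH) factors Neurog1, Neurog2, Neurog3, Neurod1, Neurod2, Neurod4, Atoh1, Olig2 and Olig3 were examined in heads of E8.5 mouse embryos that carry or lack Jarid1b, an H3K4 demethylase. The 9 genes were chosen by name, with earlier results of these data known. They are 9 of the 19938 genes with a usable probe set, and each had a single one among 21789 probe sets with 1 gene symbol, out of 35556 rows in the deposited values. RNA of 4 pooled heads was hybridized to each Affymetrix mouse Gene ST array, with 3 pools of Jarid1b heterozygotes and 3 pools of Jarid1b knockouts, all E8.5 and on a C57BL/6 background. Knockouts came from intercrosses of heterozygotes in which loxP-flanked sequence of Jarid1b had been removed with Cmv-cre, so the controls also carry 1 deleted allele and no wild-type pool was part of the comparison. Values are log2 of the deposited intensities, on which a difference of 1 is a doubling. In pooled heads, fewer cells expressing a gene and less RNA per cell cannot be told apart.

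Proneural bHLH factors commit progenitors to the neuronal fate. They pair with E proteins on E-box sequences, switch on Delta ligands that signal through Notch to neighboring cells, and are held back by Hes and Hey repressors and by Id proteins, which bind E proteins without binding DNA. Neurogenins and Atoh1 act early in this cascade and NeuroD factors later in differentiating neurons, while Olig factors pattern the neural tube. At E8.5 the neural plate of the head is still closing and few neurons have been born.

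With the loss of Jarid1b, 0 of the 9 bHLH genes passed the threshold of 0.05 on the adjusted p of limma, and Neurog1 was the only member with an unadjusted p under 0.05. Of all 21789 probe sets, 1 passed the adjusted threshold (0.00459%), lower in knockouts, with 0 higher, and 10.6% had an unadjusted p under 0.05. This 1 was Jarid1b (Kdm5b), which ranged from 9.12 to 9.17 in heterozygote pools and from 7.47 to 7.71 in knockout pools, a log2 difference of -1.55 with standard error 0.070 (adjusted p = 6.29e-04 in limma). For Neurog1, all 3 knockout pools lay above all 3 heterozygote pools, and the means differed by 0.21 on the log2 scale or 1.16-fold. Neurod2 and Atoh1 followed with log2 fold changes of 0.14 and 0.16, and the other 6 lay between -0.041 and 0.086. The median over the 9 members was 0.079, against -0.00072 over all probe sets tested. Over the 7263 dimmest probe sets, to which 6 members belonged, the median was 0.056. The members' median was 0.039 without heterozygote replicate 1, 0.047 after quantile normalization and 0.050 after cyclic loess normalization. The members' own adjusted p-values ran from 0.412 to 0.960, which does not show that the levels were equal.

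Most of these genes gave a weak signal at this stage. The mean of each member was set against 1210 probe sets of olfactory and vomeronasal receptors, sensory neuron genes not known for E8.5 heads, whose median log2 intensity was 3.32 and whose 95th percentile was 4.99. Olig3, Neurog2, Neurog1 and Neurod2 lay above that percentile in all 6 pools. Olig2, Neurog3, Atoh1, Neurod1 and Neurod4 lay below it in all 6 pools, so that their signal was not separated from that of genes not known for this tissue. Neurod4 was brighter than 43.5% and Neurod1 than 57.0% of the receptor probe sets. For Olig2, the highest of the 5, the share was 92.9%. Probe sets differ in their background, so these shares describe the signal and do not order the genes by RNA abundance.

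**Figure D1:**
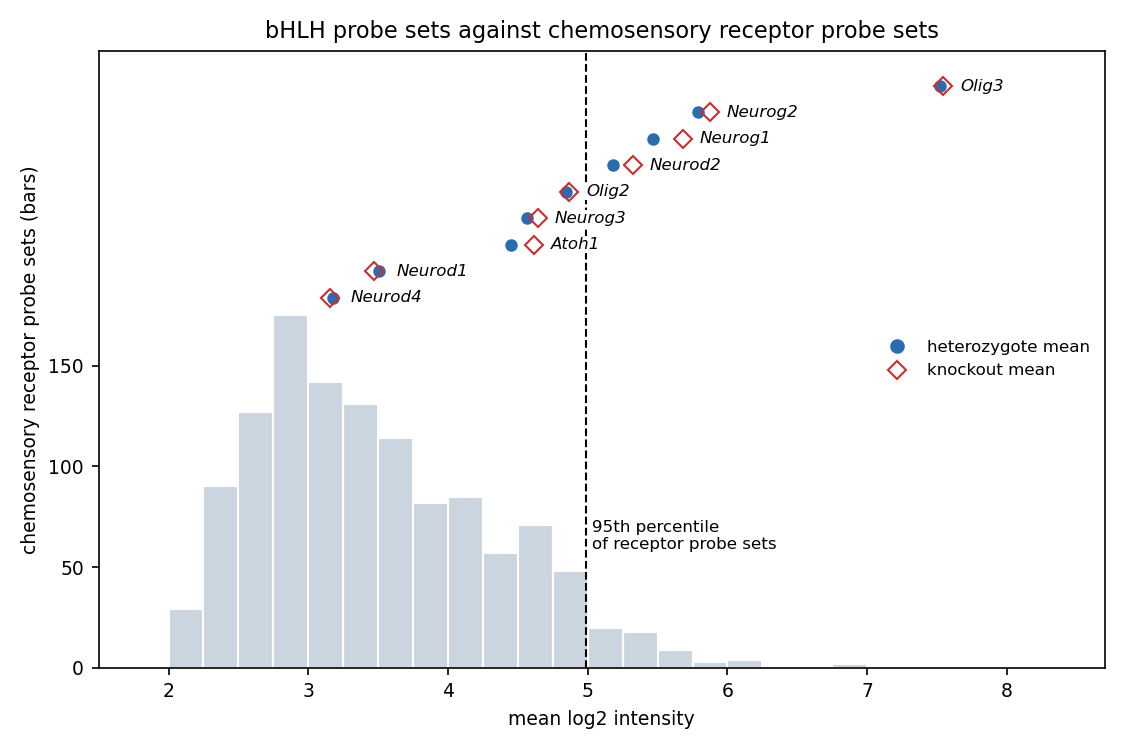
Mean log2 intensity (x axis) of the 9 bHLH probe sets in 3 heterozygote pools (blue points) and 3 knockout pools (red diamonds), set above a histogram of the means of 1210 olfactory and vomeronasal receptor probe sets (gray bars, y axis in probe sets), with a dashed line at their 95th percentile of 4.99. Olig3, Neurog2, Neurog1 and Neurod2 lie to the right of the line, and the vertical spacing of the 9 genes carries no value.

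The promoter sequences of the members differed in the density of CpG dinucleotides, which mark the islands where H3K4me3 and Polycomb marks are commonly found. In RefSeq sequences of the GRCm38.p6 assembly, all 9 genes had a window of 250 bases upstream of an annotated start. Neurod4 had 2 such windows, which overlap, so that a motif match may be shared by both. Neurog1 held 29 CG dinucleotides, more than 93.2% of the 32841 windows of all genes, whose median was 6. Neurod1 and Olig2 held 22 each, Neurog3 18, Atoh1 14, Neurod2 11 and Neurog2 8. Olig3 held 4, and the Neurod4 windows held 2 and 7. The E-box, spelled CANNTG and read the same on both strands, was present in 4 of the 10 member windows (Neurog3, Neurod1, Neurod2 and Olig3) against 66.2% of all windows. The Hes binding motif CACNAG, on either strand, was found in both Neurod4 windows only, against 36.7% of all windows, and TATAAA on the gene's strand was found for Olig2 and Olig3, against 7.59% of all windows. Matches of the motifs were counted separately and may overlap. The windows of Neurog1 and Neurod2 are shown 5′ to 3′ on the minus strand, with E-boxes in capitals. Neurog1 was the only member whose groups did not overlap. The study also probed the Neurod2 locus by ChIP in forebrains of newborns. In E8.5 heads of both genotypes it mapped H3K4me3 and a Polycomb mark genome-wide by ChIP-seq, which was not analysed here. The ChIP primers of the forebrain assay, shown further below, do not occur in the printed Neurod2 window on either strand. Neurog1 lies at chr13:56252181-56252430 and Neurod2 at chr11:98329646-98329895.
Neurog1: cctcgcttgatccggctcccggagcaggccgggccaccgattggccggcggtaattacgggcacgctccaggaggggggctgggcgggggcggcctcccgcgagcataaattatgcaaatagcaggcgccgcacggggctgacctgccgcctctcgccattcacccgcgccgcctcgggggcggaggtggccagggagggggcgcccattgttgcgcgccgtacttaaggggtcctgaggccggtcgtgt
Neurod2: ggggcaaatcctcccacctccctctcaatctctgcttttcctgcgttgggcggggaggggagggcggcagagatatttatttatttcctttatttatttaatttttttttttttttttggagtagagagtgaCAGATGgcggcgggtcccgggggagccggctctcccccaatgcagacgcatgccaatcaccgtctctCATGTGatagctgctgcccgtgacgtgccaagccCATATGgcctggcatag
Neurog1 held 0 E-boxes in this window and Neurod2 held 3. A match describes letters and is no measure of binding.

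The neurogenins, which start neurogenesis, were led by Neurog1. Neurog1, the determination factor of cranial sensory and early hindbrain neurons, had log2 intensities of 5.53, 5.54 and 5.33 in heterozygote replicates 1 to 3 and of 5.72, 5.65 and 5.68 in knockout replicates 1 to 3. Heterozygote replicate 3 was the lowest of the 6 pools, the 3 knockout pools lay close together, and the groups did not overlap. The means were 5.47 ± 0.12 (SD, n = 3 pools) and 5.68 ± 0.037 (SD, n = 3), and the log2 fold change was 0.21 ± 0.070 (standard error) with 95% limits of 0.052 and 0.38 (limma, unadjusted p = 0.0163, adjusted p = 0.412). Over the alternatives its adjusted p ranged from 0.329 to 0.653. The exact two-sided permutation test over the 6 pools gave 0.1, the smallest p that 3 pools against 3 allow. Non-overlapping groups with the knockout above were found for 8.03% of all probe sets and for 8.99% of the 7263 probe sets of middle intensity, to which Neurog1 belongs. At an unadjusted p under 0.05, 5.97% of all probe sets and 6.72% of the middle ones were higher in knockouts, and 4.66% of all were lower. Without heterozygote replicate 3, the log2 fold change of Neurog1 was 0.15 and its unadjusted p was 0.0509 in limma.

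The pools differed in Y-linked transcripts, and Neurog1 was also fitted with these in the model. The mean log2 intensity of Uty, Eif2s3y and Kdm5d was 6.24 in heterozygote replicate 1 and 6.16 in heterozygote replicate 3, whereas the remaining 4 pools ranged from 7.52 to 7.97. Heterozygote replicate 2, on the higher side, had the highest Neurog1 value of the heterozygotes, at 5.54, next to 5.53 in heterozygote replicate 1 on the lower side. With the Y-linked level as a covariate, the log2 fold change of Neurog1 was 0.17 (limma, unadjusted p = 0.102). Its standard error was 0.088 with the covariate and 0.070 without. No member had an unadjusted p under 0.05 in the fit with the covariate. Both pools on the lower side were heterozygotes, so the Y-linked level and the genotype cannot be fully told apart.

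Neurog2, a partly redundant neurogenin of the cranial ganglia and neural tube, had values of 5.83, 5.81 and 5.74 in heterozygotes and of 5.80, 5.92 and 5.91 in knockouts. Knockout replicate 1 fell among the heterozygote pools, and the other knockouts lay above all of them. The log2 fold change was 0.086, with 95% limits of -0.051 and 0.22 (adjusted p = 0.624 in limma). Neurog3, known for endocrine progenitors of the pancreas, was at 4.56, 4.58 and 4.56 in heterozygotes, with an SD of 0.010, and at 4.83, 4.59 and 4.52 in knockouts. Its log2 fold change of 0.079 (standard error 0.083) rested on knockout replicate 1 and was -0.013 without that pool.

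**Figure D2:**
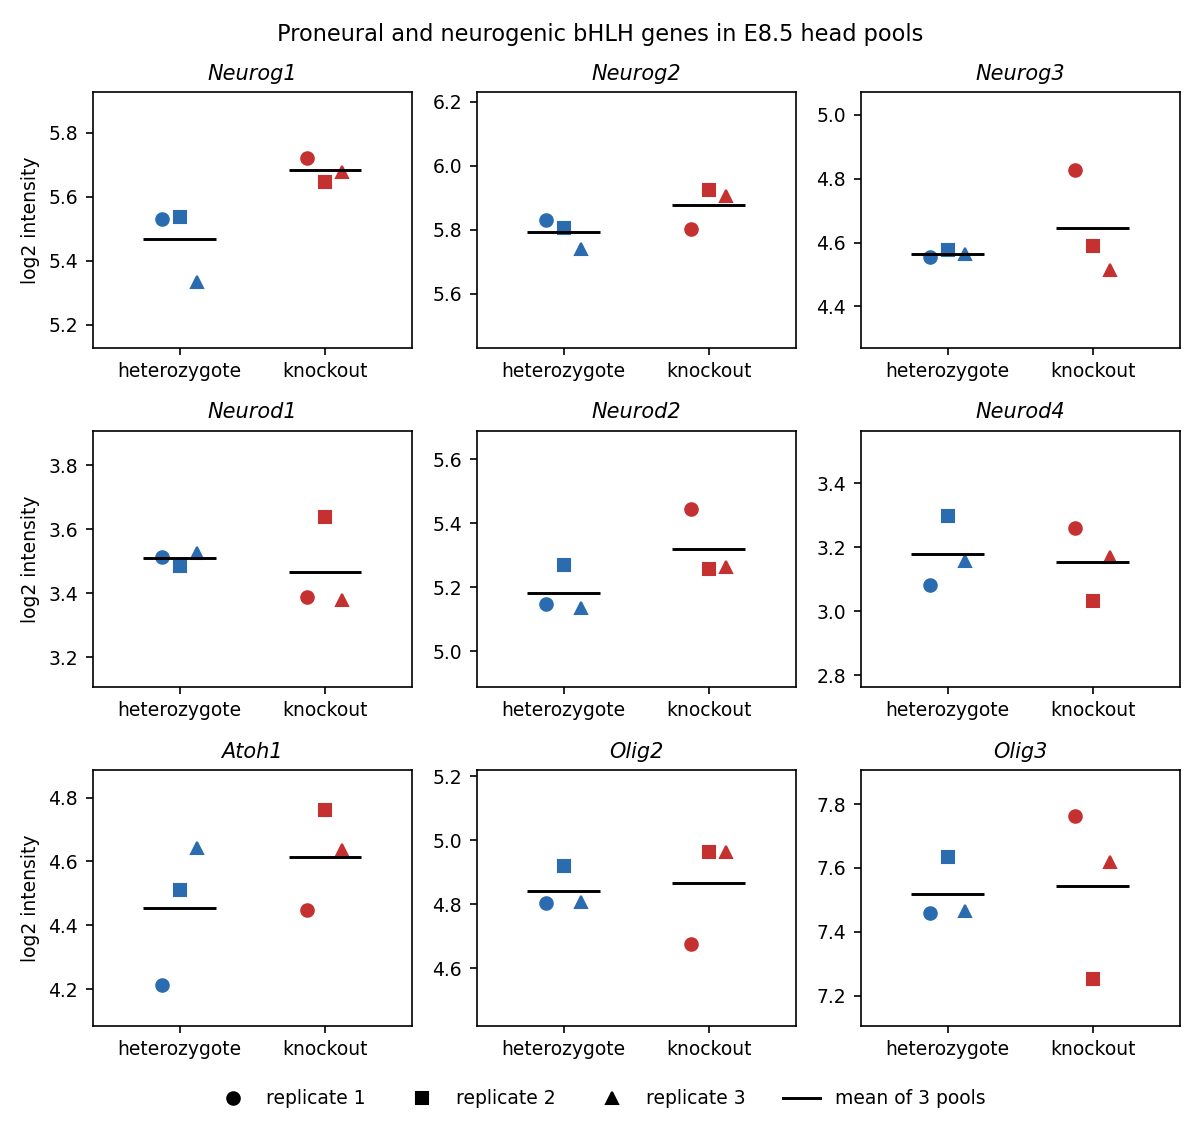
Log2 intensity (y axis) of the 9 bHLH genes in each pool of E8.5 heads, with heterozygotes in blue and knockouts in red, symbols for the replicate number and black bars for the means of 3 pools. All panels span the same 0.8 log2 units, so that the spread of Olig3 and Atoh1 can be compared with that of Neurog2, and only Neurog1 shows groups that do not overlap.

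The NeuroD factors, which act downstream of the neurogenins, showed no common direction. Neurod2, a factor of maturing cortical and other neurons, was at 5.15, 5.27 and 5.13 in heterozygotes and at 5.44, 5.26 and 5.26 in knockouts. Heterozygote replicate 2 was level with knockout replicates 2 and 3, and knockout replicate 1 stood above all others. The log2 fold change was 0.14 ± 0.073 (standard error, adjusted p = 0.536 in limma), and the exact permutation p was 0.3. Without heterozygote replicate 2 the groups no longer overlapped and the log2 fold change was 0.18, and without knockout replicate 1 it was 0.076.
The study designed primer pairs for Neurod2 both for RT-qPCR and for ChIP, shown 5′ to 3′ because they tie both assays to the same stretch of the gene. Capitals mark the 14 bases that the expression forward primer and the ChIP reverse primer have in common.
Neurod2 expression forward: AGAAGCTGTCCAAGatcgagac
Neurod2 expression reverse: ccgtgaggaagttacgagagtt
Neurod2 ChIP forward: caagatctccgagagagcccag
Neurod2 ChIP reverse: caagacgcAGAAGCTGTCCAAG
The end of the ChIP primer was the start of the expression primer, read on the same strand. The RT-qPCR and ChIP measurements were not analysed here.
Neurod1, a factor of differentiating sensory neurons and of endocrine cells, was at 3.51, 3.49 and 3.53 in heterozygotes. In knockouts it was at 3.39, 3.64 and 3.38, so that knockout pools held both the highest and the lowest values. Its log2 fold change was -0.041, with 95% limits of -0.22 and 0.14 (adjusted p = 0.870 in limma). Neurod4, which acts with other bHLH factors in retina and cranial ganglia, had values from 3.03 in knockout replicate 2 to 3.30 in heterozygote replicate 2, and its log2 fold change was -0.025 (standard error 0.082). Both genes had their signal inside the range of most receptor probe sets.

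Atoh1, the determination factor of rhombic lip neurons and inner ear hair cells, varied most among the pools. It was at 4.21, 4.51 and 4.64 in heterozygotes and at 4.45, 4.76 and 4.64 in knockouts. Heterozygote replicate 1 was the lowest pool, and the other heterozygotes fell within the range of the knockouts. The difference of 0.16 on the log2 scale had 95% limits of -0.12 and 0.44 (adjusted p = 0.665 in limma). Without heterozygote replicate 1 it was 0.039, without heterozygote replicate 3 it was 0.25 and without knockout replicate 2 it was 0.087.

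The groups of both Olig genes overlapped. Olig3, which marks progenitors of the dorsal neural tube, had the strongest signal of the 9 genes relative to the receptor probe sets, above 99.9% of them. Its values were 7.46, 7.63 and 7.46 in heterozygotes and 7.76, 7.25 and 7.62 in knockouts, so that knockout replicate 1 was the highest and knockout replicate 2 the lowest of all pools. The knockout mean of 7.54 ± 0.26 (SD, n = 3) lay within the spread of the heterozygote mean of 7.52 ± 0.0996 (SD, n = 3), with a log2 fold change of 0.025 and 95% limits of -0.27 and 0.32 (adjusted p = 0.960 in limma). Leaving out knockout replicate 1 gave -0.083 and leaving out knockout replicate 2 gave 0.17. Olig2, the factor of motor neuron and oligodendrocyte progenitors, was at 4.80, 4.92 and 4.81 in heterozygotes and at 4.67, 4.96 and 4.96 in knockouts. Knockout replicate 1 was its lowest pool, the opposite of Olig3. The log2 fold change was 0.025 (standard error 0.089), and it was 0.12 without that pool and -0.040 after quantile normalization.

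**Figure D3:**
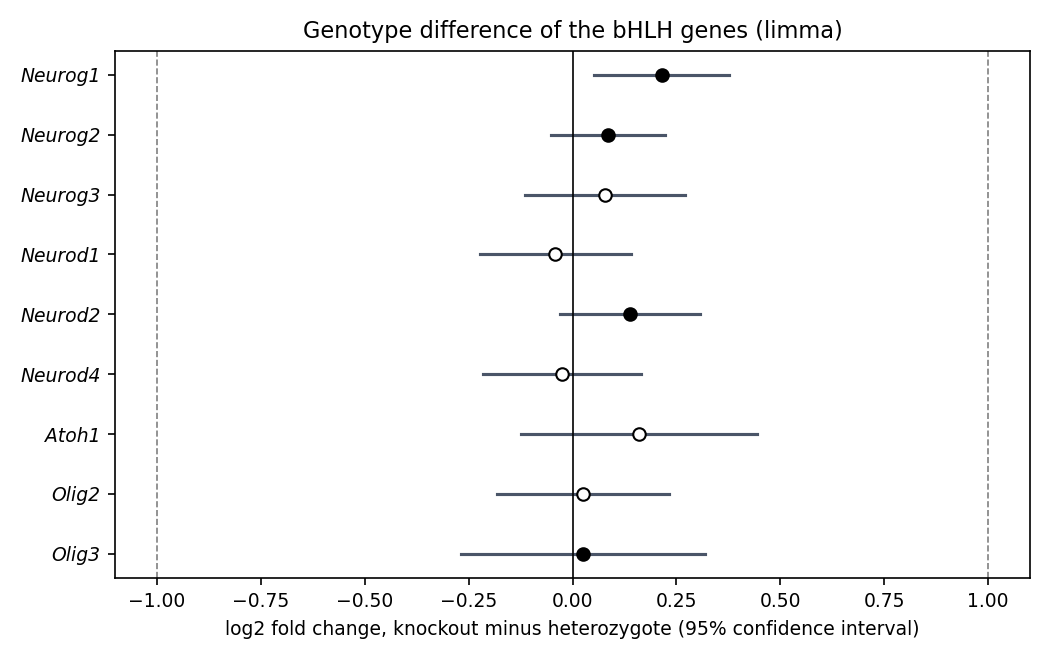
Log2 fold change, knockout minus heterozygote, of the 9 bHLH genes (points) with 95% confidence intervals from limma (bars), filled where the mean intensity was above the 95th percentile of receptor probe sets and open where it was not, with dashed lines at a 2-fold change. The interval of Neurog1 runs from 0.052 to 0.38, the other 8 intervals hold 0, and none extends beyond 0.44 or below -0.27.

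The width of these intervals sets what the arrays could show. The standard errors of the members ranged from 0.059 for Neurog2 to 0.13 for Olig3, and the highest interval end, that of Atoh1, corresponds to 1.36-fold. For the 5 genes below the receptor 95th percentile the intervals cover the signal of the probe set, which need not be RNA of that gene. Single receptor probe sets had means up to 7.73, so lying above the percentile does not settle this for the other 4. Of the 9 members, 7 had values above 0 and 2 below, beside 49.7% positive among all probe sets. However, 6 members belonged to the 7263 dimmest probe sets, 69.6% of which had a positive value, with a median of 0.056. In that range 4 of the 6 members were positive. The remaining 3, Neurog1, Neurog2 and Olig3, belonged to the middle 7263, where 49.8% were positive. Over the 1210 receptor probe sets the median log2 fold change was 0.062. The part of this shift with intensity in the members' values was not tested. After quantile normalization, which equalizes the distributions of the arrays, Neurog1 was at 0.16, Atoh1 at 0.10, Neurod2 at 0.082, Neurog2 at 0.047 and Neurog3 at 0.020. Neurod1 was then at -0.095, Neurod4 at -0.076 and Olig2 at -0.040, while Olig3 was at 0.073.

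Several members had their highest or lowest value in the same pool, and an effect of single pools was not tested. Knockout replicate 1 had the highest value for Neurog1, Neurog3, Neurod2 and Olig3, and knockout replicate 2 for Neurog2, Neurod1, Atoh1 and Olig2. Neurod4 alone was highest in a heterozygote pool. Heterozygote replicate 3 was the lowest pool for 3 members, and knockout replicates 2 and 3 for 2 each. Knockout replicate 1 and heterozygote replicate 1 were lowest for 1 each. The spread over pools was larger in knockouts for 7 of the 9 members, all but Neurog1 and Atoh1, beside 57.4% of all probe sets and 52.3% of the 7263 dimmest. Groups that do not overlap were found for 1 of the 9 members, beside 17.1% of all probe sets in either direction. Without knockout replicate 1 this count was 3 (Neurog1, Neurog2 and Olig2), where 30.9% of all probe sets did not overlap. It was 2 without heterozygote replicate 2 (Neurog1 and Neurod2, background 26.1%), without knockout replicate 2 (Neurog1 and Neurod1, background 29.1%) and without knockout replicate 3 (Neurog1 and Neurog3, background 25.8%).
Markers of primitive blood and of visceral endoderm stood apart in 2 of these pools. The embryonic globin Hba-x reached 10.09 in knockout replicate 2, against 6.18 to 7.78 in the other pools, and 6 of 6 visceral endoderm genes were lowest in knockout replicate 3, where Apom was at 7.35. The part of either in the bHLH values was not tested. Without knockout replicate 2, Neurog1 was at 0.23, Olig3 at 0.17, Atoh1 at 0.087, Neurod1 at -0.13, Neurod4 at 0.037 and Olig2 at -0.024. Without knockout replicate 3, Neurog1 was at 0.22, Neurog3 at 0.14, Neurod1 at 0.0033, Olig2 at -0.023 and Olig3 at -0.012.

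Around the proneural factors, 0 genes of any list had an adjusted p below 0.05 by limma. Counts at an unadjusted p under 0.05 stand beside 10.6% of all probe sets. Of the 8 other neural bHLH factors measured, all 8 had positive log2 fold changes, from 0.019 for Bhlhe23 to 0.18 for Ferd3l, a regulator of the floor plate, which alone had an unadjusted p under 0.05. Their median was 0.078, and 6 of the 8 belonged to the dimmest 7263 probe sets. Of these 7263, 69.6% had a positive value, with a median of 0.056. The E proteins, the dimerization partners of all these factors, ranged from -0.015 for Tcf3 to 0.0027 for Tcf4, with Tcf12 at -0.010. The 4 Id genes lay between -0.11 for Id2 and 0.058 for Id4, with a median of -0.056, and 0 of 4 had an unadjusted p under 0.05.

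Some Hes and Hey repressors silence proneural genes on Notch signaling. Among 9 genes on the Hes and Hey list, Hes5 and Hes1 had the most extreme values, in opposite directions. That list also holds Hes6, which is on the list of proneural targets too. Hes5, a Notch target of neural progenitors, was at 7.22, 7.40 and 7.34 in heterozygotes and at 7.39, 7.60 and 7.64 in knockouts. Its log2 fold change was 0.23 ± 0.083 (standard error, limma, unadjusted p = 0.0268, adjusted p = 0.421), and knockout replicate 1 fell below heterozygote replicate 2. Hes1, which is also driven by signals other than Notch, was at 9.39, 9.53 and 9.56 in heterozygotes and at 9.29, 9.43 and 9.17 in knockouts. Its log2 fold change was -0.20 ± 0.082 (standard error, limma, unadjusted p = 0.0433, adjusted p = 0.458), and knockout replicate 2 lay above heterozygote replicate 1. The median of the 9 was 0.024, and of all probe sets 10.6% had an unadjusted p under 0.05.
The 14 Notch ligands, receptors and effectors were evenly split, 7 positive and 7 negative, with a median of -0.0006. They ranged from -0.13 for Dll1, the ligand that proneural factors induce, to 0.18 for Jag2, the only one with an unadjusted p under 0.05. Of 17 genes known as targets of proneural factors, 0 had an unadjusted p under 0.05, and their median was -0.0092. Both lists stand beside 10.6% of all probe sets at an unadjusted p under 0.05. The extremes were Gadd45g at -0.21 and Barhl2 at 0.22.

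**Figure D4:**
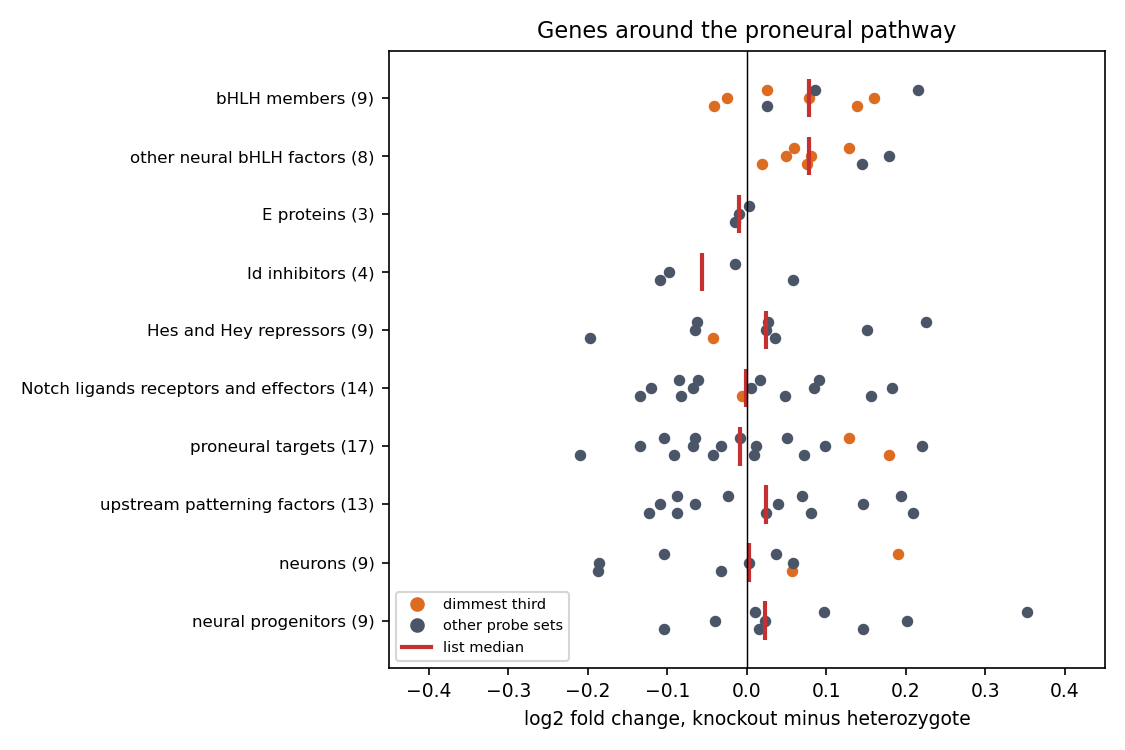
Log2 fold change, knockout minus heterozygote (x axis), of each measured gene on 10 lists around the proneural pathway (number of genes in parentheses), in orange for probe sets among the dimmest 7263 and gray for all others, with a red line at each list's median. Points of all 10 lists lie between -0.21 and 0.35. All 6 orange points of the other neural bHLH factors lie right of 0, beside 69.6% positive among the dimmest 7263.

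Patterning factors upstream of the proneural genes and markers of the cells that carry them gave further context, and the counts at an unadjusted p under 0.05 stand beside 10.6% of all probe sets. Of 13 upstream factors, Zic1 at 0.21 and Nkx6-2 at 0.19 had an unadjusted p under 0.05, the lowest was Nkx2-2 at -0.12, and the median was 0.025. All 9 neural progenitor markers lay above the receptor 95th percentile, and they ranged from -0.10 for Msi1 to 0.35 for Fabp7, with Fabp7 and Sox1 (0.20) at an unadjusted p under 0.05. The 9 neuronal markers had a median of 0.0026, between -0.19 for Isl1, the only one with an unadjusted p under 0.05, and 0.19 for Pou4f1. The pan-neuronal tubulin Tubb3 was also at -0.19. Dcx, a microtubule protein of young neurons, lay below the receptor 95th percentile.
Neurog1 and Neurog2 are also expressed in cranial placodes, and the 9 markers of surface ectoderm and placodes were all negative, from -0.22 for Cdh1 to -0.0076 for Foxi3, with a median of -0.098 and 2 (Cdh1 and Krt18) at an unadjusted p under 0.05. Of these 9 markers, 7 belonged to the 7263 brightest probe sets, 29.8% of which had a positive value, with a median of -0.035. Of the 7 neural crest markers, Tfap2b at 0.29 had an unadjusted p under 0.05 and Tfap2a was lowest at -0.14. Head mesoderm markers ranged from -0.14 for Tcf15 to 0.12 for Foxc2 and foregut endoderm markers from -0.11 for Foxa2 to 0.045 for Sox17, with 0 of 8 and 0 of 5 at an unadjusted p under 0.05. The heart markers ran from -0.24 for Hand2 to 0.064 for Actc1, with Hand2 and Gata4 at an unadjusted p under 0.05, and the endothelial markers from -0.19 for Etv2 to 0.22 for Robo4, with both of these at an unadjusted p under 0.05. Blood markers ran from 0.12 for Gata1 to 1.66 for Hbb-bh1, and Klf1 had an unadjusted p under 0.05. Hbb-bh1 was at 8.87 in knockout replicate 2 and from 4.41 to 6.14 in the other pools. Visceral endoderm markers ran from -0.64 for Apom to -0.21 for Apoa4, with 0 of 6 at an unadjusted p under 0.05. Apom was at 7.35 in knockout replicate 3 and from 8.78 to 9.10 in the other pools.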

How the data were processed

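Genotype and replicate number were taken from the sample labels. Per the submitters' processing notes, the authors used RMA and Affymetrix Power Tools (versions not given in the sources used here) to produce the deposited intensity table. The deposited values ran from 2.53 to 11741 with array medians of 58.1 to 62.9, are linear, and carry no detection calls, so log2 was taken. The study's own comparison used Gene Array Analyzer.

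Of 35556 rows, 21789 had exactly 1 symbol in the platform annotation, 1621 several and 12146 none listed. Of these, 21698 took their current symbol from RefSeq (GRCm38.p6) and 91 kept the listed one. The highest-mean probe set stood for a gene. Genotypes were contrasted in limma 3.58.1 (lmFit, eBayes, R 4.3.3) with no covariate, and p-values were adjusted by Benjamini-Hochberg over all 21789. The script was tested on simulated data. Precision is limited by the 6 arrays, and a p-value reflects only how much these pools vary.

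The members and gene lists were chosen with earlier results of these data known. Named were all members, Jarid1b, the highest and lowest gene of each list and any passing at an adjusted p under 0.05, and the 3 probe sets most correlated with 2 members. Further genes (Tcf12, Sox1, Tubb3, Dcx, Krt18, Gata4, Klf1, Nkx6-2, Hba-x and the Y-linked genes) were picked with their values in view. The Y-linked level is the mean of 3 genes, since Ddx3y was not analysed here. Alternatives changed the normalization, the probe sets fitted, the variance model, array weights or covariates, added the replicate number as a block, or left out each pool. No genome build is named for the arrays, and coordinates belong only to the RefSeq sequences.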

Additional observations from a re-analysis of the deposited data

How the results depend on the processing

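In limma, 0 of the 9 members reached an adjusted p below 0.05 under any of the 16 alternatives, and Jarid1b did under all of them. Neurog1, Neurog2, Neurod2 and Atoh1 stayed positive wherever fitted, Neurog1 between 0.15 and 0.25. The count of members with an unadjusted p under 0.05 was 0 with the Y-linked covariate and ranged from 0 (without heterozygote replicate 3) to 1 when pools were left out, and that of members with non-overlapping groups ranged from 1 to 3. Olig2 turned to -0.040 after quantile normalization, -0.032 after cyclic loess and -0.043 with the Y-linked covariate, and Olig3 to -0.011 with array weights and -0.010 with the Y-linked covariate. With single pools left out, Neurog3 ranged from -0.013 to 0.14, Neurod1 from -0.13 to 0.0033, Neurod4 from -0.079 to 0.037, Olig2 from -0.024 to 0.12 and Olig3 from -0.083 to 0.17. The cause was not tested. Without the dimmest probe sets, 6 members could not be fitted. With the replicate number as a block, Neurog1 was at 0.21 (limma, unadjusted p = 0.0228) and no call changed. Same-numbered pools deviated from their group means with correlations of 0.00076, 0.11 and -0.013. These values cannot exclude a pairing. The labels give only a number and name no pairing, so the numbers were not taken to pair the samples.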

Other observations

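For the member with the highest mean and the member with the widest range over pools, the probe sets outside the dimmest 7263 with the most similar pattern over the 6 pools were listed as a description. For Olig3 they were Kbtbd4, with a Pearson r of 0.992, Pelp1 at 0.984 and Slc27a2 at 0.980, out of 14525 searched. For Atoh1 they were Syt6 at 0.991, Faxc at 0.982 and Homer2 at 0.981, out of 14526. An r above 0.9 was found for 86 probe sets with Olig3 and for 67 with Atoh1. The values of a pool come from the same array, and no function is inferred from the likeness.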
